A study of Mus musculus with 18 samples.

Results

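Somatic hypermutation of the VH186.2 heavy chain segment was compared between 3 Exo1-/- and 7 Exo1+/+ mice, 10 of the 18 mice of the study. These 10 were all mice of the 2 genotypes, chosen by their genotype label. The other mice carry the nuclease-dead Exo1DA/DA allele and were not used here. All 10 mice had a C57BL/6 background, were age-matched (the age itself is not stated), and received NP(33)-CGG on alum a single time, so that they share the hapten response and differ by the label in the Exo1 alleles. Exo1-/- mice are germline null for Exo1, so EXO1 is absent from all tissues and not from B cells alone, and Exo1+/+ mice are the wild type. The dose reads 200 μg in the protocol and 200 mg in the sample label. Spleens were taken on day 10, and VH186.2 (IGHV1-72*01, gene symbol Ighv1-72) was amplified from splenocyte cDNA by nested PCR. The PCR was directed at this V segment, so neither the Exo1 transcript nor B cell markers could be checked against the labels.

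Hypermutation starts when AID, the deaminase of germinal centre B cells, turns cytosine into uracil, most often in the motif WRC (W is A or T, R is A or G) and in its complement GYW. WGCW is the site where both strands offer such a motif. Replication over the uracil gives transitions at G:C pairs. When mismatch repair acts on the U:G pair instead, EXO1 removes a stretch of the strand 5′ to 3′, and the low-fidelity polymerase Polη fills the gap and makes errors at A:T pairs, above all at WA and its complement TW. Mutations at A:T pairs therefore serve as a read-out of this error-prone branch of mismatch repair.

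The germline sequence of nucleotides 30 to 285 of VH186.2, as the lists give it base by base, is shown once for each enzyme, because these marked bases define the groups compared in the text. The first line has the bases of AID hotspots in capitals and the second those of Polη hotspots.
AID hotspots: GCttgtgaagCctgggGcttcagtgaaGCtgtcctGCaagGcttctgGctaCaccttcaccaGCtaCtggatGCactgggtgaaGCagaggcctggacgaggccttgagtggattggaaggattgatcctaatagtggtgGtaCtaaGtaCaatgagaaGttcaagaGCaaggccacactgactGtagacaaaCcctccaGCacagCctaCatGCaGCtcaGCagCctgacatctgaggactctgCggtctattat
Polη hotspots: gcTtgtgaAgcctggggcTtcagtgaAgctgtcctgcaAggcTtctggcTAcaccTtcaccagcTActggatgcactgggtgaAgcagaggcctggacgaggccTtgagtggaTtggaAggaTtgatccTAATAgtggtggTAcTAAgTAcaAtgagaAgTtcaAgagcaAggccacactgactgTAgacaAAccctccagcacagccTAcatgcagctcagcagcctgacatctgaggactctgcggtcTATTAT
The window holds 65 A, 57 T, 72 G and 62 C sites. Of the 134 G:C sites, 22 were marked as WGCW, 10 as WRC alone and 7 as GYW alone, which leaves 95 outside AID hotspots. Of the 122 A:T sites, 24 were marked as WA and 21 as TW, which leaves 77 outside Polη hotspots.

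The lists split the mice by a dataset number, 293, 294 and 295 in Exo1-/- and 284 to 290 in Exo1+/+, and each number was taken as 1 mouse. Numbers of clones and mutations are means over the 1000 draws of 1 sequence per CDR3 clone. The 3 Exo1-/- mice had 71.0, 254.2 and 85.5 mutated clones with 302.4, 2124 and 173.0 mutations in the window. The 7 Exo1+/+ mice had from 37.0 to 323.9 mutated clones (median 108.7) and 4452 mutations together. Mouse 294 supplied 81.7% of the mutations of the Exo1-/- group, and the largest mouse of the Exo1+/+ group 40.3%. Clones of a mouse were related to each other. In mouse 294, 176.7 of the 254.2 clones belonged to a single lineage of similar mutation sets (69.5%), against 19.7% in mouse 293, 9.35% in mouse 295 and between 5.52% and 39.7% in Exo1+/+ mice. A further 21 sets of at least 6 mutations occurred in more than 1 mouse, 13 of them in both genotypes, and made up 20.9% of all clones with at least 6 mutations.

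2 groups of changes travelled together in the clones and recurred across mice. G30A and T33G lay in the same 19.0 clones of mouse 295 (22.2% of its clones), and every clone of this mouse with T33G also had G30A. The same pair was found in 20.3% of the clones of Exo1+/+ mouse 289, in 21.5% of mouse 290 and in 2.37% of mouse 288, and in none of the remaining mice. C58G was the change most often added to the pair in mouse 295 (68.4% of its carriers), in mouse 289 (69.3%) and in mouse 290 (66.7%). C83T and C84T were carried together by 21.1% of the clones of mouse 293 and 23.6% of mouse 294, by no clone of mouse 295 and by at most 3.68% of the clones of an Exo1+/+ mouse. Where such shared changes and sets come from was not tested, carry-over of sequences between the mice and reads of related V genes included, so that the assignment of these clones to a mouse rests on the lists alone.

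Mutations at A:T pairs were less frequent in Exo1-/- mice. The frequency is given per 1000 potential mutations, that is per 1000 times that a mutated clone could have changed at a site to 1 of the other 3 bases. It was 0.726 in mouse 293, 0.455 in mouse 294 and 1.46 in mouse 295, against a lowest value of 1.43, a median of 3.98 and a highest value of 8.07 in Exo1+/+ mice. All Exo1-/- values lay below those of 6 of the 7 Exo1+/+ mice, and the remaining one, at 1.43, lay between mouse 295 and the other two. The means were 0.880 ± 0.520 (SD, n = 3) and 3.75 ± 2.46 (SD, n = 7), a mean 4.25 times as high in Exo1+/+ mice. The difference of -2.86 (95% interval -7.35 to -0.0455) had a p of 0.0333 by a 2-sided exact permutation of the mice and of 0.227 after Benjamini-Hochberg adjustment over the 34 comparisons made here. The smallest p that 3 against 7 mice allow is 0.0167, and no adjusted p of the 34 was below 0.227.

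At Polη hotspots the ratio of the means was larger. Their frequency was 0.350, 0.940 and 0.538 in mice 293, 294 and 295, and between 0.759 and 16.1 (median 4.31) in Exo1+/+ mice. The mean was 0.609 ± 0.301 (SD, n = 3) against 6.03 ± 5.48 (SD, n = 7), 9.89 times as high in Exo1+/+ mice (p = 0.0333 by exact permutation, 0.227 after adjustment). Mouse 294 overlapped with the lowest Exo1+/+ mouse only. WA sites, where the mutable A lies on the strand shown, had 0.254, 1.74 and 0.909 mutations per 1000 potential mutations in the 3 Exo1-/- mice, and a lowest value of 1.27, a median of 4.97 and a highest of 28.9 in Exo1+/+ mice. The mean WA frequency was 10.3 times as high in Exo1+/+ mice (p = 0.0333 by exact permutation, 0.227 after adjustment), and the difference of -8.95 was -5.78 without Exo1+/+ mouse 287. The WA values rest on few events in 2 of the Exo1-/- mice, with 1.3 mutations in mouse 293 and 5.59 in mouse 295, against 31.8 in mouse 294 and 11.4 to 232.0 in Exo1+/+ mice.

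TW sites, the same motif read from the other strand, had 0.460, 0.0293 and 0.114 mutations per 1000 potential mutations in mice 293, 294 and 295. Exo1+/+ mice ranged from 0.0621 over a median of 0.519 to 5.10, and the groups overlapped (p = 0.20 by exact permutation, 0.545 after adjustment). Each Exo1-/- mouse had fewer than 3 mutations at TW sites, the upper limit that a count of 0 allows, so its level there is known only as a low one. A:T sites outside Polη hotspots had 0.946, 0.172 and 2.0 mutations per 1000 potential mutations in Exo1-/- mice and 0.884 to 3.80 (median 2.31) in Exo1+/+ mice. The difference between the means, 1.04 and 2.41, did not pass the test (p = 0.0833 by exact permutation, 0.354 after adjustment). With 1 mouse left out at a time, p ran from 0.0476 without Exo1+/+ mouse 288, the lowest of its group, to 0.278 (exact permutation).

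**Figure D1:**
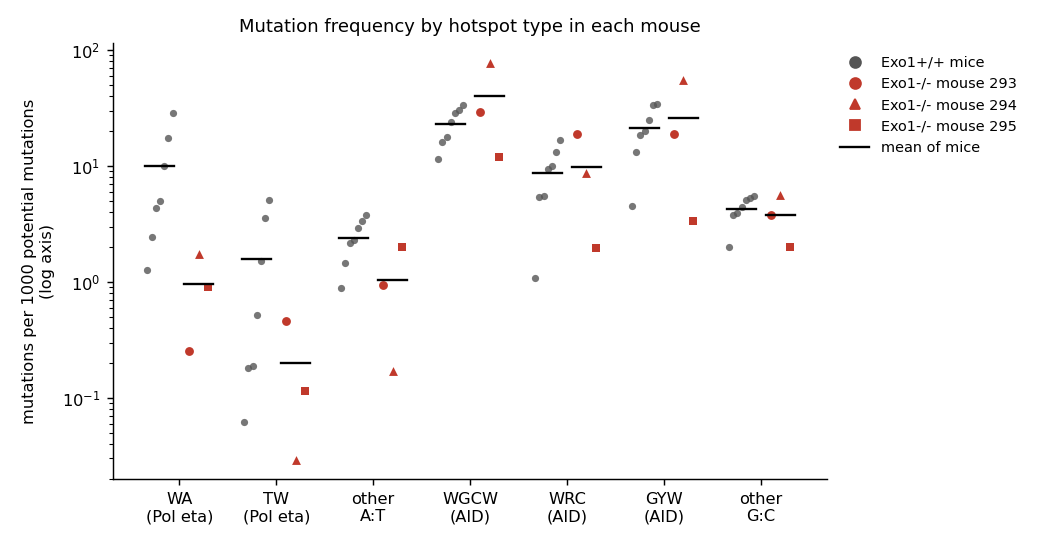
Mutations per 1000 potential mutations (log axis) at each type of hotspot and outside hotspots, with a point for each mouse and a bar for the mean of each genotype. At WA sites, 6 of the 7 Exo1+/+ mice lie above all 3 Exo1-/- mice, whereas mouse 294 lies highest at WGCW and GYW, mouse 293 at WRC, and mouse 295 near the bottom at all 3.

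The calls at A:T pairs depended on how related clones were counted and on the positions used. With each lineage counted 1 time, the difference in A:T frequency was -1.16 (p = 0.0167 by exact permutation), that at Polη hotspots -2.31 (p = 0.050 by exact permutation) and that at WA sites -3.88 (p = 0.117 by exact permutation). With each distinct set of mutations counted 1 time, a weighting that makes rarely drawn sequences equal to frequent ones, the A:T difference was -1.45 (p = 0.233 by exact permutation), that at Polη hotspots -2.71 (p = 0.117 by exact permutation) and that at WA sites -4.41 (p = 0.15 by exact permutation). With all positions of the lists, the ends of the amplicon included, the A:T difference was -2.57 (p = 0.133 by exact permutation), that at Polη hotspots -5.17 (p = 0.0833 by exact permutation) and that at WA sites -8.34 (p = 0.117 by exact permutation). Sequences with at most 10 mutations left the differences at Polη hotspots and WA sites, -3.73 and -6.37, at the threshold (exact permutation, p = 0.050 each), as did the clones mutated in the window as denominator for the A:T difference of -2.94 (p = 0.050 by exact permutation). With the sequences shared between mice removed, the A:T difference was -2.87 (p = 0.0333 by exact permutation). With the clones that carry both G30A and T33G left out, which was decided once their values were known, the A:T difference was -2.90 (p = 0.0333 by exact permutation).

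Split into the 12 substitution types, each divided by the sites with its germline base, 8 types had the lower mean in Exo1-/- mice and 4 the higher. All 6 types that start from A or T were among the lower ones. A to T reached 0.256, 0.798 and 0.220 per 1000 potential mutations in mice 293, 294 and 295, against 0.560 to 9.75 (median 1.73) in Exo1+/+ mice (p = 0.0333 by exact permutation, 0.227 after adjustment). The difference of -3.51 was -1.63 with each lineage counted 1 time (p = 0.0667 by exact permutation) and -1.31 with each distinct set counted 1 time (p = 0.433 by exact permutation), so that neither kept the call. Mouse 293 and mouse 295 had 1.18 and 1.22 such mutations in all, and most of them were a single change, A91T in the former (85.1%) and A56T in the latter (81.7%). A to G, the A:T transition, had the highest level of the 6 types in Exo1+/+ mice. It was 3.00, 1.37 and 1.57 in Exo1-/- mice and 0.783 to 29.7 (median 4.12) in Exo1+/+ mice, and did not pass the test (p = 0.117 by exact permutation, 0.441 after adjustment). The lowest Exo1+/+ value, that of mouse 290, lay below all 3 Exo1-/- mice. With 1 mouse left out at a time, p ran from 0.0476 without mouse 290, whose removal raises the Exo1+/+ mean, to 0.278 (exact permutation). In mouse 293, 94.0% of the A to G mutations were A181G, and in mouse 294, 84.2% were A182G, so that these values describe neighbouring sites of 1 codon.

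T to A was also lower by the test (p = 0.0333 by exact permutation, 0.227 after adjustment), with 0.0363, 0.0549 and 0.0462 in Exo1-/- mice and 0.0486 to 4.88 (median 0.223) in Exo1+/+ mice. This rested on hardly any events. The call was lost with at most 10 mutations per sequence (-0.368 in place of -1.28, p = 0.45 by exact permutation), with each distinct set counted 1 time (p = 0.70 by exact permutation) and with sequences shared between mice removed (-1.22, p = 0.10 by exact permutation). The call was kept with each lineage counted 1 time (-0.361) and with the clones carrying G30A and T33G left out (-1.28), with p = 0.0167 by exact permutation in each. It lay at the threshold with all positions, with the window as denominator and with the first 500 iterations (exact permutation, p = 0.050 each). No Exo1-/- mouse had as much as 1 T to A mutation per draw, and 5 of the 7 Exo1+/+ mice had fewer than 3. The high values belonged to Exo1+/+ mouse 285, where 73.3% of 90.1 mutations were T85A and without which the difference was -0.686, and to Exo1+/+ mouse 284, where 97.4% of 7.19 mutations were T162A. A to C was 0.250, 0.0103 and 1.33 in Exo1-/- mice (mean 0.530) against a mean of 2.15 ± 1.45 (SD, n = 7) in Exo1+/+ mice. T to C had means of 0.797 and 1.53, and T to G of 1.47 and 2.36, in Exo1-/- and Exo1+/+ mice. None of these 3 types passed the test (exact permutation tests, p = 0.15, 0.383 and 0.417). The T to G difference of -0.898 was -2.28 without mouse 295, -0.187 without mouse 294 and -0.223 without mouse 293, and the T to C difference of -0.734 was -1.10 without mouse 295 and -0.366 without Exo1+/+ mouse 286. The T to G value of mouse 295, 4.24, stood far above the 0.115 and 0.0432 of the other two, and 92.0% of it was T33G, the change linked to G30A. Transitions made up 84.4%, 65.1% and 35.4% of the A:T mutations of mice 293, 294 and 295, and between 11.5% and 75.2% (median 56.2%) in Exo1+/+ mice. The difference between the means, 13.9 percentage points, did not pass the test (p = 0.417 by exact permutation, 0.545 after adjustment), and it was 2.51 without mouse 293, 27.0 without mouse 295 and 7.84 without Exo1+/+ mouse 290.

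**Figure D2:**
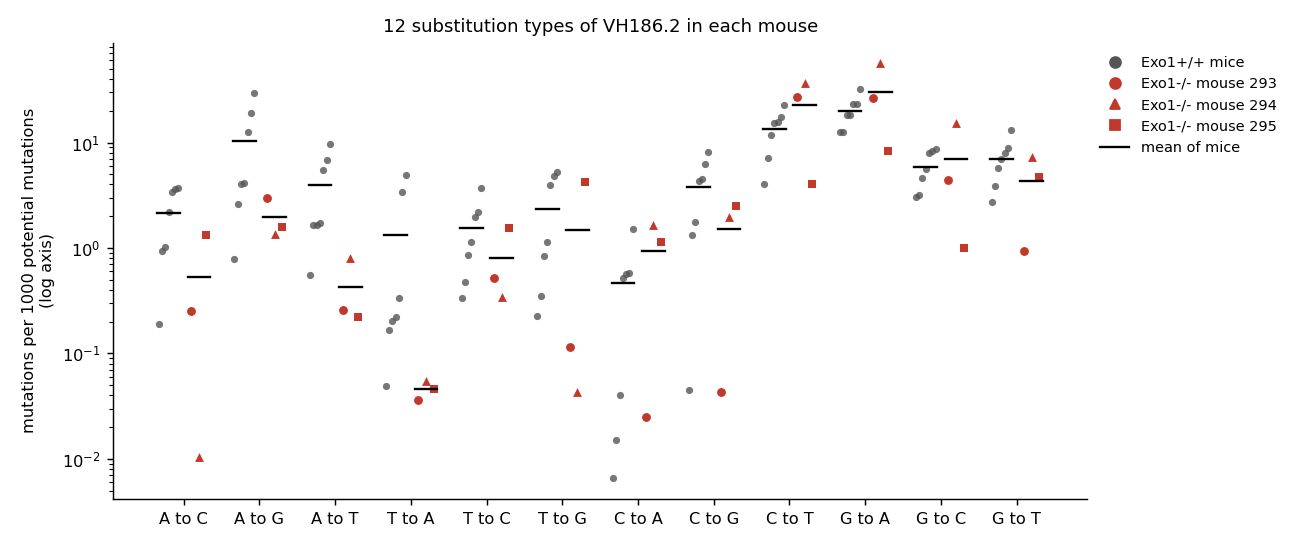
Mutations per 1000 potential mutations (log axis) for the 12 substitution types, with a point for each mouse and a bar for the mean of each genotype. The 6 types from A or T on the left have lower Exo1-/- means, and the spread of the 3 Exo1-/- mice at C to T and G to A, from 4.08 to 36.9 and from 8.37 to 56.2, is wider than that of the Exo1+/+ mice.

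At G:C pairs the 3 Exo1-/- mice did not share a level. The frequency was 9.94 in mouse 293, 20.4 in mouse 294 and 3.70 in mouse 295, whereas Exo1+/+ mice stayed between 5.90 and 10.4 (median 9.20). Mouse 294 thus lay above, and mouse 295 below, all Exo1+/+ mice. The difference of the means, 2.71 (95% interval -6.63 to 13.5), was within the spread (p = 0.50 by exact permutation, 0.607 after adjustment), and without mouse 294 it was -1.81. AID hotspots gave the same order, with 24.9, 56.3 and 7.89 in Exo1-/- mice and 11.2 to 26.5 (median 20.5) in Exo1+/+ mice (p = 0.433 by exact permutation, 0.546 after adjustment). Without mouse 294 the difference at AID hotspots turned from 10.5 to -2.82, and without mouse 295 it was 21.4.

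The AID hotspot types differed in which mouse was high. At WGCW, where both strands can be deaminated, the values were 29.5, 78.2 and 12 in mice 293, 294 and 295 and 11.5 to 33.6 (median 24.1) in Exo1+/+ mice, so that only mouse 294 left the range. At GYW alone it was again mouse 294 that stood out, with 55.6 against 18.8 and 3.37 in the other two and 4.56 to 34.4 (median 20.1) in Exo1+/+ mice. At WRC alone, mouse 293 had the highest value of all 10 mice, 18.8, followed by 16.6 in an Exo1+/+ mouse, while mouse 294 had 8.78 and mouse 295 1.98. G:C sites outside AID hotspots had 3.82, 5.60 and 1.98 in Exo1-/- mice and 2.02 to 5.53 (median 4.43) in Exo1+/+ mice. None of these 4 classes passed the test (exact permutation tests, p = 0.40, 0.683, 0.80 and 0.633).

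Among the types at G:C pairs, the transitions C to T and G to A and the transversions C to A and G to C had the higher means in Exo1-/- mice, and the transversions C to G and G to T the lower ones. C to T, the direct outcome of replication over a uracil on the strand shown, was 27.2, 36.9 and 4.08 in Exo1-/- mice against 4.01 to 22.8 (median 15.3) in Exo1+/+ mice, so that mice 293 and 294 lay above all Exo1+/+ mice and mouse 295 next to their lowest value (p = 0.217 by exact permutation, 0.545 after adjustment). The difference in C to T of 9.28 was 0.816 once the clones with C83T and C84T were left out (p = 0.833 by exact permutation), which was decided after seeing the data, 2.19 without mouse 294 and 18.6 without mouse 295. G to A, the same event on the other strand, was 26.7, 56.2 and 8.37, against 12.5 to 31.9 (median 18.4) (p = 0.417 by exact permutation, 0.545 after adjustment), and without mouse 294 the difference turned from 10.4 to -2.48, and without mouse 295 it was 21.5. Transitions made up 90.3%, 77.4% and 57.5% of the G:C mutations of mice 293, 294 and 295, and between 48.3% and 83.3% (median 66.5%) in Exo1+/+ mice (p = 0.333 by exact permutation, 0.545 after adjustment). The difference of 10.5 percentage points was 2.83 without mouse 293, 19.2 without mouse 295 and 16.1 with each lineage counted 1 time.

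The most frequent change of each transversion type at G:C pairs differed between the 3 Exo1-/- mice, but further sites were shared. Their means in Exo1-/- and Exo1+/+ mice were 1.5 and 3.77 for C to G, 0.942 and 0.463 for C to A, 6.91 and 5.92 for G to C, and 4.28 and 7.03 for G to T. C to G was 0.0434, 1.97 and 2.47, and in mouse 295, 99.1% of it was C58G. C to A was 0.0248, 1.66 and 1.15, with C93A (57.5%) leading in mouse 294 and C132A (49.4%) in mouse 295. G to C was 4.38, 15.3 and 0.996, led by G92C (44.7%) in mouse 293, G246C (30.9%) in mouse 294 and G197C (65.6%) in mouse 295. G197C was among the 3 most frequent G to C changes in all 3 of them. G to T was 0.940, 7.21 and 4.67, of which G98T made up 96.2% in mouse 295 and G170T 53.6% in mouse 294. Both G98T and G170T were also among the 3 most frequent G to T changes of mouse 293. No transversion type at G:C pairs passed the test (exact permutation tests, p between 0.267 and 0.717). The C to A difference of 0.479 was 0.123 without mouse 294 and 0.938 without mouse 293, and the G to T difference of -2.75 was -1.09 without mouse 293 and -4.22 without mouse 294. The G to C difference of 0.993 turned to -3.23 without mouse 294.

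The A:T share of the mutations, which is not divided by the number of sites or clones, was 6.24% in mouse 293, 1.99% in mouse 294 and 26.4% in mouse 295. Their exact binomial 95% intervals, which cover counting error only and treat mutations as independent, were 3.83 to 9.65%, 1.43 to 2.66% and 20.2 to 33.8%. Exo1+/+ mice ranged from 11.1% over a median of 28.4% to 44.9%. Mice 293 and 294 lay below all Exo1+/+ mice and mouse 295 close to their median, and the means of 11.5% ± 13.0 (SD, n = 3) and 26.9% ± 13.5 (SD, n = 7) were not separated (p = 0.133 by exact permutation, 0.453 after adjustment). The difference of -15.4 percentage points was -5.70 with each distinct set counted 1 time, -9.81 with all positions and -10.3 with each lineage counted 1 time. In mouse 295, 54.7% of the A:T mutations lay in the clones with G30A and T33G. In Exo1+/+ mice 289 and 290 these clones held 54.4% and 46.0% of the A:T mutations.

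Clones with at least 1 A:T mutation made up 23.4%, 15.4% and 38.2% of the mutated clones in mice 293, 294 and 295. In Exo1+/+ mice this share was between 34% and 80.8% (median 45.5%). The difference between the means, -28.3 percentage points (95% interval -57.4 to 1.5), lay at the threshold (p = 0.050 by exact permutation, 0.283 after adjustment). It was -17.1 with all positions (p = 0.30 by exact permutation), -15.2 with each lineage counted 1 time (p = 0.167 by exact permutation) and -8.63 with each distinct set counted 1 time (p = 0.217 by exact permutation). With 1 mouse left out at a time it ran from -34.6 to -23.2 (exact permutation, p from 0.0476 to 0.167). The number of mutations per mutated clone differed little between the means, 4.88 and 4.84, but the 3 Exo1-/- mice had 4.26, 8.35 and 2.02, the highest and the lowest of all 10 mice among them (p = 0.95 by exact permutation, 0.95 after adjustment).

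Clones were also sorted by their number of G:C mutations, as a description without a test. Among clones with 1 to 4 G:C mutations, 19.7%, 0% and 38.5% of the clones of mice 293, 294 and 295 had an A:T mutation, and between 30.8% and 64.9% (median 43.9%) in Exo1+/+ mice. The 0% of mouse 294 comes from 13.1 clones, which allows a share of up to 24.7% by the exact binomial interval, and the 19.7% of mouse 293 comes from 20.4 clones with an interval of 5.73 to 43.7%, which reaches past the lowest Exo1+/+ mice. These intervals treat clones as independent, although many clones of mouse 294 belonged to 1 lineage. Among clones with 5 or more, the shares were 8.33% of 24 clones, 15.7% of 237.2 clones and 80.0% of 5 clones, and between 30.7% and 100% (median 85.4%) in Exo1+/+ mice. The shares of mice 293 and 294 were below those of every Exo1+/+ mouse in both classes, and that of mouse 295 was within their range in both.

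**Figure D3:**
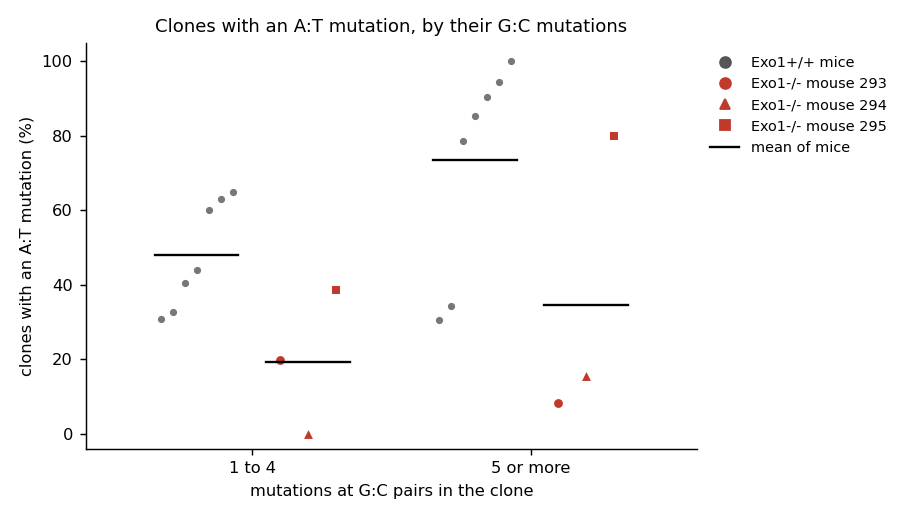
Percent of clones with at least 1 A:T mutation, for clones with 1 to 4 and with 5 or more G:C mutations, with a point for each mouse and a bar for the mean of each genotype. Mice 293 and 294 lie below all 7 Exo1+/+ mice in both classes, and mouse 295, with 5 clones in the second class, lies at 38.5% and 80.0%.

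Along the segment, the percent of mutated clones changed at a position was compared site by site. The mean of the Exo1-/- mice was the lower at 86 of the 122 A:T positions (70.5%) and at 78 of the 134 G:C positions (58.2%). Among the motifs this was the case at 21 of 24 WA positions (87.5%), 15 of 21 TW positions (71.4%), 8 of 22 WGCW positions (36.4%), 6 of 10 WRC and 3 of 7 GYW positions. At G:C pairs the lower positions were in the majority although the mean G:C frequency was higher in Exo1-/- mice (11.3 against 8.63). The counts were not tested, and a lower mean at most positions of a class does not by itself set that class apart. A:T positions changed in at least 1% of the clones numbered 4, 5 and 11 in mice 293, 294 and 295, and between 6 and 31 (median 11) in Exo1+/+ mice. For WA positions alone, these numbers were 1, 3 and 3 against 1 to 15 (median 7). G:C positions that reached 1% numbered 40, 36 and 30 in Exo1-/- mice and 16 to 52 (median 32) in Exo1+/+ mice. A single clone is more than 1% in the mice with few clones, such as 293 and 295, and less than 1% in mouse 294, so these numbers also depend on how many clones a mouse had.

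All 3 Exo1-/- mice lay below all 7 Exo1+/+ mice at 2 of the 256 positions (0.781%) and above them at 0 (0%). With 120 ways to divide 3 and 7 mice, such a count describes the sites and says nothing more. Both positions are A:T pairs, nucleotides 200 and 229, named after their values were seen. At nucleotide 200, a WA site in codon 67, the Exo1-/- mice had 0.0113%, 0.00669% and 0.0117% of clones, all far less than 1 clone, and Exo1+/+ mice 0.0159% to 14.2% (median 0.818%). Exo1+/+ mice 284, 289 and 290 had 0.0298%, 0.0168% and 0.0159% there, likewise far less than 1 clone. At nucleotide 229 the Exo1-/- values were 0.00141%, 0.0102% and 0.0129% and the Exo1+/+ median was 0.0196%, so that most of the mice of both genotypes had no more than a rarely drawn sequence there. The site with the change A200G (K67R) reads gagcaAggcca, with the changed base in capitals.

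The A:T positions at which the Exo1-/- mean lay furthest below that of Exo1+/+ mice were nucleotides 160, 56 and 281, which are given with their surroundings (5 bases on each side, changed base in capitals) because all 3 are WA sites.
nt 160: atcctAatagt
nt 56: agtgaAgctgt
nt 281: ggtctAttatt
Nucleotide 160 is the first base of codon 54 in CDR2, and A160T (N54Y) was its most frequent change in Exo1+/+ mice. It was changed in 0.0874%, 0.00551% and 0.115% of the clones of mice 293, 294 and 295. In Exo1+/+ mice it ranged from 0.0811% to 44.1% (median 4.23%), with 4 of 7 mice at 1% or more. Nucleotide 56 in FR1, mostly changed by A56T (K19M), had 0.0197%, 0.00669% and 1.24% in Exo1-/- mice. Exo1+/+ mice had up to 29.8% there, with a median of 0.837%. Nucleotide 281 in FR3, mostly changed by A281G (Y94C), was below 0.4% in each Exo1-/- mouse and reached 43.5% in Exo1+/+ mouse 286, with a median of 1.06%. At all 3 positions the genotypes overlapped, and at nucleotide 56 mouse 295 lay above the Exo1+/+ median.

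The A:T positions at which the Exo1-/- mean lay furthest above owed this to a single Exo1-/- mouse each. A181G (N61D) was found in 18.3% of the clones of mouse 293 and in less than 0.1% of those of the other two. A182G (N61S), in the same codon, was found in 7.48% of mouse 294. T264C, a silent change, was found in 4.71% of mouse 295. Nucleotides 181 and 264 lie outside Polη hotspots, and 182 is a WA site. The 3 most frequent A:T changes of a mouse accounted for 79.6%, 67.4% and 63.5% of the A:T mutations in mice 293, 294 and 295. In mouse 293 these were A181G, A91T and A68C, in mouse 294 A182G, A172T and A216T, and in mouse 295 T33G, A126C and T264C. In Exo1+/+ mice the corresponding share was between 25.1% and 77.9%.

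**Figure D4:**
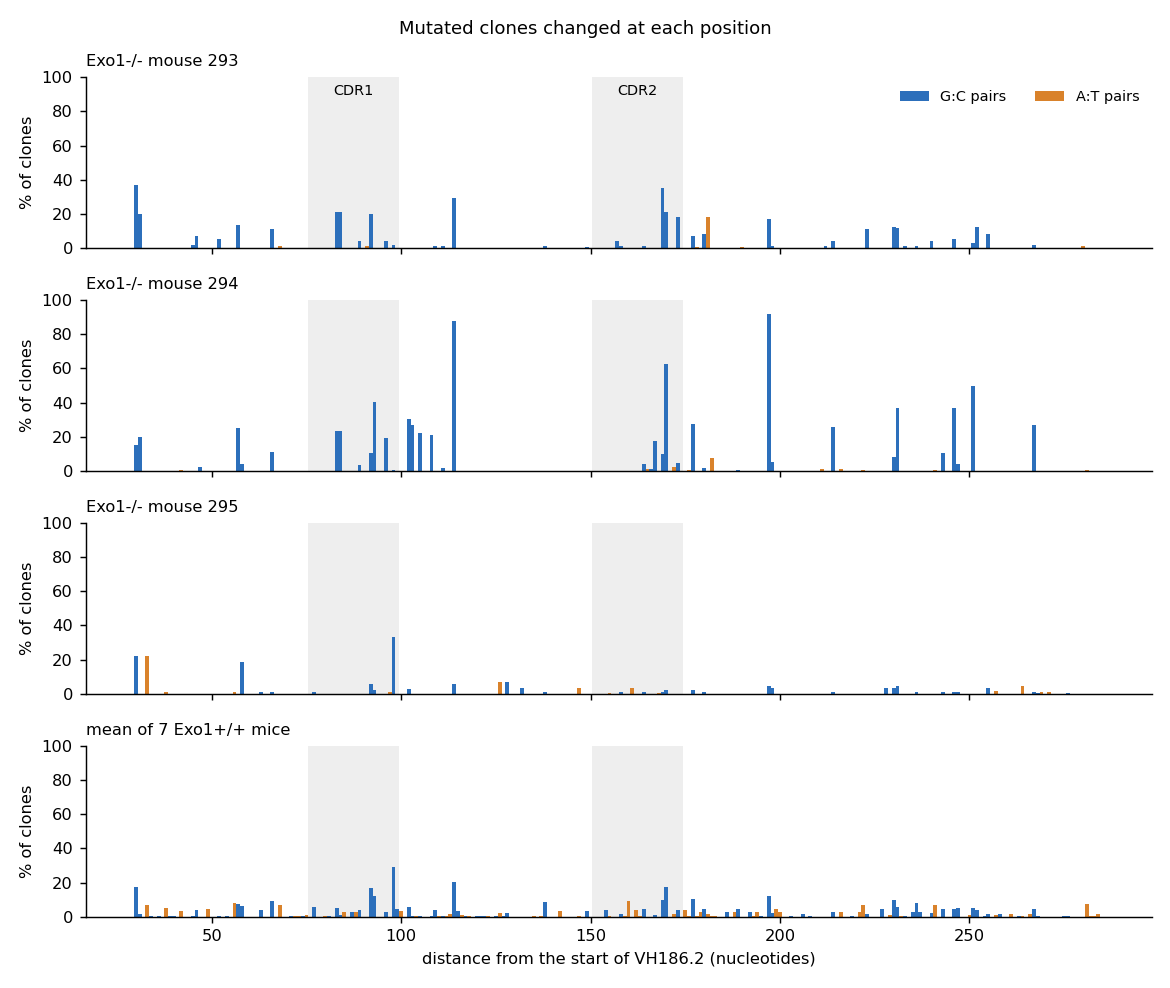
Percent of mutated clones changed at each nucleotide of VH186.2 in the 3 Exo1-/- mice and as the mean of the 7 Exo1+/+ mice, with A:T pairs in orange, G:C pairs in blue and CDR1 and CDR2 shaded. G:C pairs dominate in mice 293 and 294, the tallest bar being nucleotide 197 in mouse 294 at 92.0%, and mouse 295 has its highest A:T bar, T33G, at 22.2% near the start.

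At G:C pairs the Exo1-/- mean lay furthest above that of Exo1+/+ mice at nucleotides 197, 114 and 84, and furthest below it at nucleotides 98, 138 and 236. The surroundings are shown because the first 2 are WGCW sites and the other 4, but for the WRC site 236, lie outside AID hotspots.
nt 197: caagaGcaagg
nt 114: gtgaaGcagag
nt 84: tacacCttcac
nt 98: ctactGgatgc
nt 138: cttgaGtggat
nt 236: cacagCctaca
G197A (S66N) and the other changes of nucleotide 197 were present in 16.9%, 92.0% and 4.72% of the clones of mice 293, 294 and 295 and in 0.0920% to 28.3% (median 12.1%) in Exo1+/+ mice. At nucleotide 114, where the leading change G114A is silent (K38K), the values were 29.6%, 87.6% and 5.85% against 6.03% to 32.5% (median 26%). At both positions mouse 294 was far above all other mice, while mouse 295 was at or near the lower end. These are shares of clones, and 69.5% of the clones of mouse 294 belonged to a single lineage. Nucleotide 84, changed almost only by C84T, a silent change of codon 28 (T28T), was changed in 21.2% and 23.6% of the clones of mice 293 and 294 and in 0.00702% of mouse 295, and Exo1+/+ mice had at most 4.61%.

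Nucleotide 98 is the middle base of codon 33, where G98T (W33L) is the change known to raise the affinity for NP. It was changed in 1.90%, 0.790% and 33.5% of the clones of mice 293, 294 and 295 and in 1.52% to 64.8% (median 16%) in Exo1+/+ mice. It was the most mutated position of mouse 295 and of the Exo1+/+ mean, while mice 293 and 294 were changed there about as rarely as the lowest Exo1+/+ mouse. The most mutated position was nucleotide 30 (G30A, silent) in mouse 293, with 36.7%, and nucleotide 197 in mouse 294. Nucleotide 138 (G138A, silent) had 1.41%, 0.000393% and 1.17% in Exo1-/- mice and up to 27.2% (median 2.76%) in Exo1+/+ mice. Nucleotide 236, mainly changed by C236T (A79V), had 1.42%, 0.00393% and 1.17% in Exo1-/- mice and 0.311% to 18.8% (median 6.45%) in Exo1+/+ mice.

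Replacement and silent mutations were separated by framework (FR) and complementarity determining regions (CDR), each mutation being read in the germline codon. In a V segment, CDR loops contact the antigen and FR hold the fold, so that selection by antigen acts differently on the CDR and on the FR. Of all single base changes the window allows, 114 of 144 (79.2%) in CDR1 and CDR2 and 483 of 624 (77.4%) in FR replace the amino acid.

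In the CDR, replacement mutations made up 83.7%, 68.4% and 94.5% of the mutations of mice 293, 294 and 295, and between 78.7% and 99.9% (median 97.4%) in Exo1+/+ mice (p = 0.283 by exact permutation, 0.545 after adjustment). Mouse 294 was below all Exo1+/+ mice. This came from CDR1, where replacement made up 65.6%, 42.5% and 94.5%, against 64.2% to 99.96% (median 96.6%). In CDR2 the mice lay close together, with 99.9%, 98.8% and 94.8% in Exo1-/- mice and 95.3% to 99.8% in Exo1+/+ mice. The silent frequency in the CDR was 8.51, 23.9 and 1.01 per 1000 potential silent mutations in mice 293, 294 and 295, against 0.0568 to 10.6 (median 1.27), and the replacement frequency 11.5, 13.6 and 4.61 against 5.91 to 15.9 (median 12.6). Neither passed the test (exact permutation tests, p = 0.30 and 0.383). The difference in replacement share in the CDR, -8.88 percentage points, was 1.42 with each lineage counted 1 time, -1.29 without the clones with C83T and C84T and -1.97 without mouse 294, but -14.4 with each distinct set counted 1 time and -15.1 without mouse 295. With the CDR bounds of Kabat it was -2.83 (p = 0.75 by exact permutation), and the difference in replacement frequency in the CDR was -0.310 in place of -2.18, and -0.363 without codon 33. The difference in silent frequency in the CDR, 6.90, was 0.459, 0.758, 0.530, 9.55 and 12 under the first 5 of these settings, and C84T is itself a silent change in CDR1.

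In the FR, replacement mutations made up 43.5%, 57.4% and 36.4% of the mutations of mice 293, 294 and 295. Exo1+/+ mice had 48.9% to 73.1% (median 60.4%). Mice 293 and 295 lay below all Exo1+/+ mice. The means were 45.8% ± 10.7 (SD, n = 3) and 60.6% ± 9.46 (SD, n = 7), and the difference of -14.8 percentage points (95% interval -35.2 to 7.48) did not pass the test (p = 0.0667 by exact permutation, 0.324 after adjustment). With each distinct set counted 1 time it was -0.555 (p = 0.933 by exact permutation). With 1 mouse left out at a time it ran from -20.7 to -10.2 (exact permutation, p from 0.0476 to 0.222). The FR shares of all 10 mice were below the share that a mouse's own mix of the 12 types would give if it were spread evenly over the sites of each base, which was 62.6%, 65.6% and 72.3% in mice 293, 294 and 295 and 65.6% to 75.5% in Exo1+/+ mice. This was not the case in each FR. Shares were below it in FR2 for 3 Exo1-/- and 7 Exo1+/+ mice, in FR1 for 3 and 4, and in FR3 for 1 and 2.

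By region, the replacement share in FR1 was 35%, 28.6% and 26.5% in mice 293, 294 and 295 and 25.3% to 70.7% (median 53.9%) in Exo1+/+ mice. In FR2 it was 11.3%, 48.1% and 36.6% against 40.4% to 70.7% (median 50.5%), so that mice 293 and 295 lay below all Exo1+/+ mice there. In FR3 it was 57.8%, 69.4% and 51.1% against 59.8% to 92.1% (median 64.7%), with the same 2 mice below. The silent frequency in the FR was 10.8, 18.4 and 6.61 per 1000 potential silent mutations against 5.45 to 11.9 (median 9.62), and the replacement frequency 2.43, 7.24 and 1.11 against 2.28 to 8.37 (median 4.28). Mouse 295 thus had the lowest FR replacement frequency of all 10 mice. Neither frequency passed the test (exact permutation tests, p = 0.317 and 0.750).

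**Figure D5:**
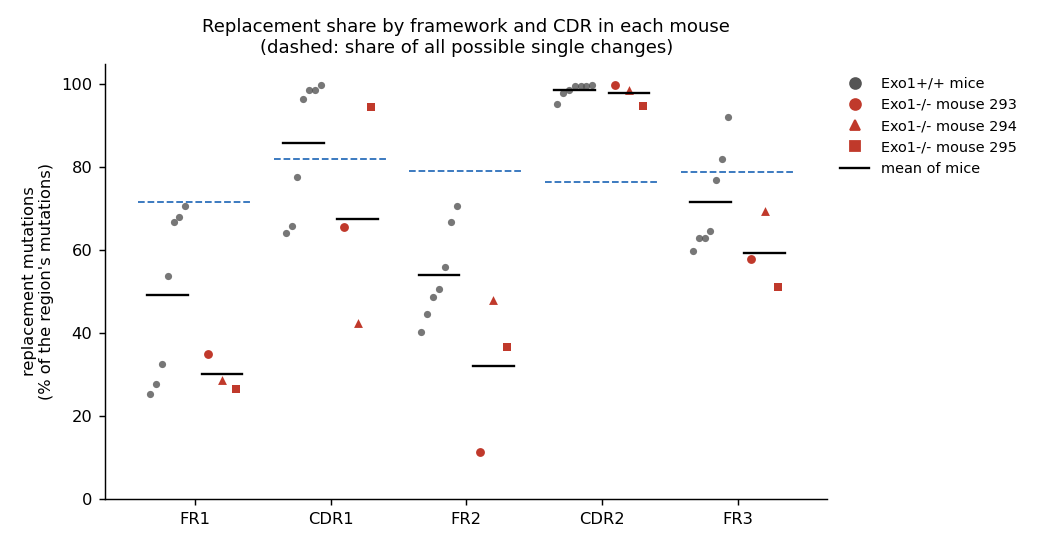
Percent of the mutations of each region that replace the amino acid, with a point for each mouse, a bar for the mean of each genotype and a dashed line for the share among all possible single changes. In FR2, mice 293 and 295 (11.3% and 36.6%) lie below all Exo1+/+ mice, and in CDR2 all mice of both genotypes lie between 94.8% and 99.9%.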

How the data were processed

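VH186.2 amplicons from the spleens of 10 mice (3 Exo1-/-, 7 Exo1+/+) were analysed. The authors joined MiSeq read pairs, merged copies of 1 molecular identifier, defined CDR3 clones with IMGT/HighV-QUEST and sampled a single sequence from each CDR3 clone, repeated over 1000 iterations; program versions and a genome build are not given in the sources used here. Each line of the deposited lists is 1 mutation, with its position, bases, motif, iteration and dataset number, and the lists hold neither read counts nor normalized values, so read depth is unknown. A sequence was weighted by its iterations divided by 1000. Unmutated sequences have no line, so denominators are mutated clones. Sequence was rebuilt from the lists, hotspots are those the authors marked, regions are those of IMGT, and the gene symbol comes from RefSeq (GRCm38.p6).

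Differences between genotype means were tested over mice by exact permutation (2-sided, 120 divisions), with Benjamini-Hochberg adjustment over 34 comparisons, and 95% intervals by inversion of the test. Nothing in the labels gives litters, so p values measure the spread between these mice. Positions named are the most mutated of each genotype and of each Exo1-/- mouse, the 3 largest differences in each direction at A:T and at G:C pairs, the middle base of codon 33, and 2 more marked as such. Members, lists and rules were chosen with earlier results of these data known. A lineage joined sequences with at least 4 mutations at a Jaccard index of at least 0.7. Steps were tested on simulated data. Python 3.11.15, NumPy 2.4.6, SciPy 1.17.1, pandas 2.3.3 and matplotlib 3.10.9 were used.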

Additional observations from a re-analysis of the deposited data

Results flagged for a closer look

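2 of 34 groups of 7 Exo1+/+ values held a mouse set apart from the rest (Dixon's test at 95%), where chance gives about 1 in 20. C to A was 1.51 per 1000 potential mutations in Exo1+/+ mouse 286, and the replacement frequency in FR was 8.37 in Exo1+/+ mouse 287, each the highest of its group.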

How the results depend on the processing

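Values here are differences (Exo1-/- minus Exo1+/+) in the unit of the result, and the threshold is an unadjusted p of 0.05. Over 15 alternatives other than leaving out a mouse, 350 of 399 values kept their direction and their side of the threshold, 20 lost it, 15 gained it and 14 changed sign. The causes of these moves were not tested. All positions of the lists gave -2.57 at A:T pairs, -5.17 at Polη hotspots, -0.0401 mutations per mutated clone and -0.186 for G to C. Clones with a mutation in the window as denominator gave -2.94 at A:T pairs. Each distinct set counted 1 time gave -1.45 at A:T pairs, -2.71 at Polη hotspots, 0.259 at other G:C sites, 1.01 for replacement in FR and -0.146 percentage points for the transition share at A:T pairs. Each lineage counted 1 time gave -2.31 at Polη hotspots, 1.42 percentage points for the replacement share in CDR, 0.703 and 0.262 for replacement in CDR and FR, and 0 positions below all Exo1+/+ mice in place of 2. Sequences with at most 10 mutations gave -3.73 at Polη hotspots, 0.0679 for replacement in FR and 1 position, and the first 500 iterations also 1 position. Removing the clones with G30A and T33G gave -0.0127 mutations per clone and 1 position, and removing those with C83T and C84T -0.620 mutations per clone (both chosen after seeing the data). The chi-squared test on counts pooled over mice, which takes mutations as independent, gave 20.5 at AID hotspots with p = 1.21e-118. As percent of a mouse's mutations the differences were -15.4 at A:T pairs, -0.817 for G to C, 0.862 for T to G and -0.367 at GYW. The number of types with the lower Exo1-/- mean stayed at 8 or 9 under these alternatives.

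With a mouse left out, 302 of 340 values stayed and 17, from 12 results, changed sign. Without an Exo1-/- mouse the smallest possible p is 0.0556, so no call can be made. The ranges were -3.25 to -2.14 at A:T pairs, -6.30 to -3.73 at Polη hotspots, -10.4 to -5.78 at WA, -1.64 to -0.799 at TW, -1.85 to -0.939 at other A:T sites, -34.6 to -23.2 for clones with an A:T mutation, -20.7 to -10.2 for the replacement share in FR, -1.81 to 6.52 at G:C pairs, -2.82 to 21.4 at AID hotspots, -2.47 to 30.6 at WGCW, -3.36 to 5.06 at WRC, -10.3 to 15.8 at GYW, -1.40 to 0.412 at other G:C sites, -2.48 to 21.5 for G to A, -3.23 to 3.95 for G to C, -4.22 to -1.09 for G to T, 0.123 to 0.938 for C to A, -2.90 to -1.55 for C to G, 2.19 to 18.6 for C to T, -10.1 to -5.23 for A to G, -2.02 to -1.36 for A to C, -4.08 to -2.54 for A to T, -1.49 to -0.686 for T to A, -1.10 to -0.366 for T to C, -2.28 to -0.187 for T to G, -22.8 to -10.6 for the A:T share, -1.70 to 1.47 mutations per clone, -4.02 to 0.463 and -2.51 to 0.557 for replacement in CDR and FR, and -0.304 to 5.58 for silent mutations in FR. Positions below all Exo1+/+ mice numbered 2 to 13, with 13 without mouse 295 and 4 without mouse 293 or Exo1+/+ mouse 290. The negative ends at G:C pairs, AID hotspots, WGCW and GYW are those without mouse 294. No paired analysis was possible because the dataset numbers of the lists are not tied to the mouse numbers that the labels give. The number of Exo1-/- mice, 3, limits the precision of every difference, as the width of the intervals shows.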
